A study of Rattus norvegicus with 9 samples.

Results

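The enzymes and carriers that take up, activate and oxidise fatty acids were followed in rat arteries of 2 kinds of hypertension. Genes were chosen by symbol: the acyl-CoA dehydrogenases, oxidases, synthetases and thioesterases, the hydroxyacyl-CoA dehydrogenases, the enoyl-CoA hydratases and isomerases, the dienoyl-CoA reductases, the carnitine palmitoyltransferases, the thiolases named Acaa and the fatty acid binding proteins. The choice gave 44 genes on 49 probesets, of 10411 genes with 1 symbol on the RAE230A array, and each gene was read from its brightest probeset by mean log2 signal. Of these, 28 genes passed the filter on low signals, and 24 of the 28 had a signal of at least the filter minimum of 44.3 on all 9 arrays.

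RNA came from a lateral branch of the saphenous artery, an artery of the hind limb, of male rats aged 16 weeks. The 3 groups were untreated Wistar-Kyoto rats (WKY), a normotensive strain, WKY given adrenocorticotrophic hormone (ACTH) by subcutaneous injection for 4 weeks from week 12, and untreated spontaneously hypertensive rats (SHR), an inbred strain related to WKY. The dose of ACTH was 0.1 mg/kg/day by the labels, and the study's methods state another. Each group had 3 arrays, and each array held RNA pooled from 2 or 3 rats, so that errors and p-values measure the spread between pools. SHR and WKY differ in strain as well as in blood pressure, and the WKY arrays serve as the control of both models, so that the 2 comparisons with WKY are not independent.

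The tissue label was checked first. All 9 smooth muscle markers on the array passed the filter, with summed signals of 21980 to 26678, and so did all 9 endothelial markers, with 2014 to 2680. The arrays were evenly scaled, with a trimmed mean of 150.03 to 150.04 and medians of 52.2 to 57.8. The GAPDH 3'/5' ratio, a measure of RNA length, averaged 5.41 ± 0.541 for the WKY arrays, against 4.05 ± 0.436 for ACTH and 4.17 ± 0.860 for SHR (SD, n = 3 arrays each). Each array correlated best with one of its own group except WKY 2, which was closest to ACTH 1. The arrays were scanned on 4 days, and no day held both WKY and ACTH arrays.

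A fatty acid that enters a cell is carried by a binding protein and activated to acyl-CoA by a synthetase. Carnitine palmitoyltransferases pass the acyl group across the mitochondrial membranes, and the matrix enzymes then shorten it by repeated rounds of dehydrogenation, hydration, a further dehydrogenation and thiolytic cleavage. Auxiliary isomerases and reductases handle unsaturated chains, thioesterases release the free acid again, and peroxisomes shorten the longest chains. Vascular smooth muscle and endothelium both express this pathway, and many of its genes are known targets of the lipid-sensing receptors of the PPAR family.

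Promoters of Acsl1, Acsl3, Cpt1a and Eci2 are shown, since the comparisons below turn on these genes, while Ech1, Fabp4 and Fabp5 had no entry. They are the 250 bases upstream of the RefSeq gene start on GRCr8, 5′ to 3′ on the gene's strand, and capitals mark the GC box GGGCGG or its reverse complement CCGCCC. They lie at chr16:52532393-52532642 on the minus strand (Acsl1), and on the plus strand at chr9:87563351-87563600 (Acsl3), chr1:209995910-209996159 (Cpt1a) and chr17:30075516-30075765 (Eci2).
Acsl1: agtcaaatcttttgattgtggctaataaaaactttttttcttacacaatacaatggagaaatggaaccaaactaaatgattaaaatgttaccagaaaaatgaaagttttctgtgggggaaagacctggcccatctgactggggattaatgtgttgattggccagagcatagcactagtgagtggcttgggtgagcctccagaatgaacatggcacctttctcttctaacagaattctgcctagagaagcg
Acsl3: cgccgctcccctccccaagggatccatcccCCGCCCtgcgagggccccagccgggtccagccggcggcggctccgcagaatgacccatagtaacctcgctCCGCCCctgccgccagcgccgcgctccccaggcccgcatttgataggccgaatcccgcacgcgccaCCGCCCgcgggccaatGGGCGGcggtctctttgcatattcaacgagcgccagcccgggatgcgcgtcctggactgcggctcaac
Cpt1a: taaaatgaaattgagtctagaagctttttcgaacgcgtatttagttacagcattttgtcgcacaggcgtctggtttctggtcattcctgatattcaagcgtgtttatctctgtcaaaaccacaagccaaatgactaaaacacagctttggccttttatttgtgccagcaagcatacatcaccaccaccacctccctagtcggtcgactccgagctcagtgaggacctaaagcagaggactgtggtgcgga
Eci2: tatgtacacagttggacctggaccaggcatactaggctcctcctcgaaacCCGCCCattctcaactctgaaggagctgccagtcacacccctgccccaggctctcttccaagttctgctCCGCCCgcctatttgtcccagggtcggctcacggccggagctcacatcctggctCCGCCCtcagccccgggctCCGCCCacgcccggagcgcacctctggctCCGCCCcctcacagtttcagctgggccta
The GC content was 40.0% for Acsl1, 72.4% for Acsl3, 45.6% for Cpt1a and 64.8% for Eci2, against a median of 51.2% over 33469 RefSeq promoters. Acsl3 held 4 GC boxes, at -220, -150, -84 and -68 from the start, and Eci2 held 5, whereas the Acsl1 and Cpt1a windows held none. A GC box on either strand was found in 15 of the 23 kept members with an entry, or 65.2%, and in 30.5% of all promoters. The latter set also holds genes that did not pass the filter, and the share among kept genes was not taken. The nuclear receptor half-site AGGTCA, which lies inside the repeat named next, was found in 4 of the 23 and in 14.1% of all promoters. The direct repeat of this half-site with 1 base between, the form bound by PPAR receptors, was in 0 of the 23 and 0.0508% of all, and the glucocorticoid receptor palindrome, GNACA and TGTNC with 3 bases between, was in 0 of the 23 and 0.373% of all. These are matches of letters in a short window, and binding was not measured.

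The clearest difference was in the acyl-CoA synthetases. Acsl3, a synthetase of the endoplasmic reticulum and of lipid droplets, and Acsl1, the main synthetase of oxidative tissues and fat, were lower in SHR than in ACTH-treated WKY arteries. They were the only members past an adjusted p of 0.05 in any comparison, and both passed in this one alone.

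Acsl3 gave MAS5 signals of 183, 105 and 116 in the WKY arrays, 179, 198 and 159 in the ACTH arrays and 85.3, 70.1 and 59.3 in the SHR arrays. Every SHR array lay below every other array, while the ACTH values spanned the highest WKY value. SHR fell by 1.33 ± 0.22 on the log2 scale against ACTH (SE, 95% interval -1.82 to -0.84, limma adjusted p = 0.0105, n = 3 arrays each), a 2.51-fold higher signal in ACTH. Against WKY the SHR difference was -0.88 ± 0.22, with an interval of -1.38 to -0.39 and an adjusted p of 0.0784. ACTH differed from WKY by 0.45 ± 0.22 (limma adjusted p = 0.470). Within a shared scan day the SHR difference was -1.59 against ACTH, from SHR 3, and -0.44 against WKY 2, from SHR 1 and SHR 2, with no test.

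Acsl1 gave signals of 316, 304 and 340.2 in WKY, 380.4, 395 and 457 in ACTH and 252, 299 and 265 in SHR. The 3 groups did not overlap, with ACTH highest and SHR lowest, although WKY 2 and SHR 2 lay close together. SHR fell by 0.59 ± 0.14 on the log2 scale against ACTH (95% interval -0.90 to -0.29, limma adjusted p = 0.0457), equal to a 1.51-fold higher signal in ACTH. The adjusted p was 0.0554 to 0.188 when any 1 of the 9 arrays was left out and 0.336 with scan day as a block, so that the call does not hold under these settings. ACTH differed from WKY by 0.36 ± 0.14 (limma adjusted p = 0.317) and SHR from WKY by -0.24 ± 0.14 (limma adjusted p = 0.427). A second Acsl1 probeset gave 53.7 to 73.3 in SHR and 55.9 to 103 in ACTH, which overlap, and its difference was -0.32 ± 0.23 (limma adjusted p = 0.530). Against WKY this probeset differed by -0.12 in ACTH, opposite in sign to the brighter one, and by -0.45 in SHR, and the mean over both probesets gave 0.12 for ACTH against WKY.

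Markers of other cell types were read beside these differences, as genes whose SHR and ACTH arrays did not overlap and as sums over the list. Of all kept probesets 11.7% did not overlap and were higher in SHR, and 13.3% were lower. Called were 1.57% higher and 1.82% lower. These shares stand beside the counts in this paragraph and the next. Of 9 smooth muscle markers 6 were lower and 2 higher in SHR, Des, the intermediate filament desmin, being called lower (log2 difference -1.25, limma adjusted p = 0.0136), while the sums overlapped at 23258 to 24955 in SHR and 23442 to 24736 in ACTH. Of 8 kept macrophage markers 5 were lower and 0 higher, with Cd14 called lower at -0.83 (limma adjusted p = 0.0373).

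For brown fat only Cidea of 8 markers on the array passed the filter, and it was lower in SHR, with a log2 difference of -2.08 (limma adjusted p = 0.00125), with Ucp1 at most 14.5. Of 9 fibroblast markers 4 were higher and 2 lower, and the higher sum in SHR, 15558 to 18081 against 10466 to 13369, rested on the bright collagens Col1a1, Col1a2 and Col3a1, since the median difference of the 9 was -0.0043. Of the 3 kept skeletal muscle markers Acta1 alone was apart, at 858 to 919 in SHR and 668 to 743 in ACTH, and Myh1 overlapped. Of 8 kept white fat markers 2 were higher and 3 lower, Lipe being called higher and Rbp4 lower. Of 9 endothelial markers 1 was higher, Flt1, which was called, and 1 lower, Vwf, or 11.1% each way, near the shares of all kept probesets. Among 4 kept Schwann cell and nerve markers 0 were higher and 1 lower, S100b. The part of these cell types in the Acsl1 and Acsl3 differences was not tested.

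The other synthetases did not pass. Acsl4, which prefers arachidonic acid, differed between SHR and ACTH by -0.35 on the log2 scale (limma adjusted p = 0.360). Acsl5, found on mitochondria and the endoplasmic reticulum, differed by 0.32 (limma adjusted p = 0.430), with 319.8 to 356 in SHR and 235 to 313 in ACTH. Acsl6 did not pass the filter. The plot of Acsl3 and Acsl1 under each setting shows that the size of both differences moved little while the Acsl1 call was lost often.

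**Figure D1:**
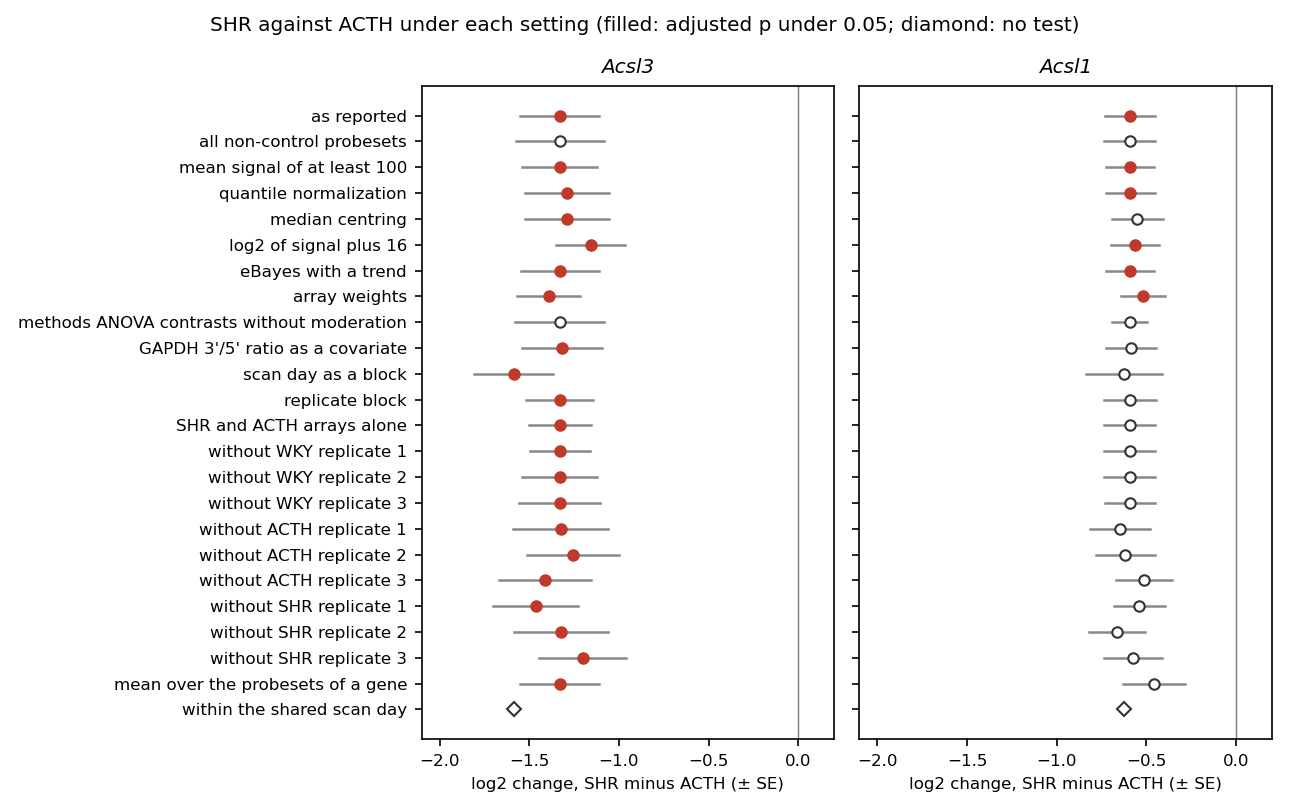
Log2 difference of SHR minus ACTH for Acsl3 (left) and Acsl1 (right) under each processing setting, with bars of 1 SE; filled points have an adjusted p under 0.05, open circles do not, and the diamond is the untested difference within 1 scan day. Acsl3 is filled under every setting with a test except all non-control probesets and the unmoderated contrasts, whereas Acsl1 is open whenever 1 array is left out.

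Cpt1a, the outer membrane enzyme whose inhibition by malonyl-CoA limits mitochondrial fatty acid entry, gave 262, 328 and 415 in WKY, 595, 455 and 487 in ACTH and 362, 386 and 383 in SHR. Every ACTH array lay above every array of the other 2 groups, and the SHR values fell inside the WKY range. The difference of ACTH from WKY was 0.63 ± 0.18 on the log2 scale, with an unadjusted p of 0.00587 in limma and an adjusted p of 0.162, and that of SHR from ACTH was -0.43 (limma adjusted p = 0.259). A second Cpt1a probeset had WKY arrays at 34.9 to 98.6, ACTH arrays at 56.3 to 70.0 and SHR arrays at 56.5 to 88.6, so that the groups overlapped there. It differed by 0.07 between ACTH and WKY and by 0.17 between SHR and ACTH, the latter opposite in sign to the brighter probeset. Cpt2, the inner membrane partner, ranged from 51.1 to 104 over the 9 arrays, with both ends among the SHR arrays. The muscle form Cpt1b and the brain form Cpt1c did not pass the filter.

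Among the auxiliary enzymes of the matrix, Ech1 and Eci2 had the largest ACTH differences, but neither passed. Ech1, a dienoyl-CoA isomerase, gave 920.2, 759.7 and 685 in WKY, 1177, 1279 and 1205 in ACTH and 655, 907 and 853 in SHR. The ACTH arrays lay apart above all others, and WKY and SHR covered much the same range. ACTH differed from WKY by 0.64 ± 0.17 on the log2 scale, with an unadjusted p of 0.00311 and an adjusted p of 0.125 in limma. SHR differed from ACTH by -0.61 ± 0.17 (limma adjusted p = 0.0814) and from WKY by 0.03 ± 0.17 (limma adjusted p = 0.953).

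Eci2, an enoyl-CoA isomerase of mitochondria and peroxisomes, gave 133, 129 and 92.8 in WKY, 182, 209 and 162 in ACTH and 116, 158 and 146 in SHR. Again every ACTH array lay above the rest, and the highest SHR array came within a few units of the lowest ACTH array. ACTH differed from WKY by 0.65 ± 0.19, with an unadjusted p of 0.00575 and an adjusted p of 0.161 in limma, and SHR differed from ACTH by -0.40 (limma adjusted p = 0.306). With scan day as a block the ACTH difference from WKY was 0.54 ± 0.34 for Ech1, 0.40 ± 0.37 for Eci2 and 0.60 ± 0.32 for Cpt1a, and this fit links ACTH to WKY only through the SHR arrays and WKY 2. When the GAPDH ratio entered the fit as a covariate, the same differences were 0.81 ± 0.24, 0.94 ± 0.25 and 0.54 ± 0.27, and adjusted p in limma was 0.304 to 0.650. Between ACTH and WKY the arrays did not overlap for 10.7% of all kept probesets, higher, and 9.77%, lower. Of 8 kept macrophage markers 6 were higher and 0 lower, and of 9 fibroblast markers 1 and 3. Of 9 smooth muscle markers 1 was higher and 0 lower, and of 9 endothelial markers 3 and 1. The part of these cell types in the ACTH differences was not tested.

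Decr1, the mitochondrial dienoyl-CoA reductase, gave a narrow range, with WKY arrays at 338 to 367, ACTH arrays at 376 to 390.0 and SHR arrays at 296 to 346, and ACTH apart from both. Decr2, its peroxisomal counterpart, gave 72.3 to 86.1 in WKY and 43.9 to 66.7 in ACTH, which do not overlap, and 57.5 to 109 in SHR. Neither passed in any comparison, and the SHR difference from ACTH of Decr1 was -0.29 (limma adjusted p = 0.271). Echs1, the short-chain hydratase, and Eci1, whose probeset can bind more than 1 transcript, overlapped in all 3 groups, at 132 to 195 and 412 to 554.

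**Figure D2:**
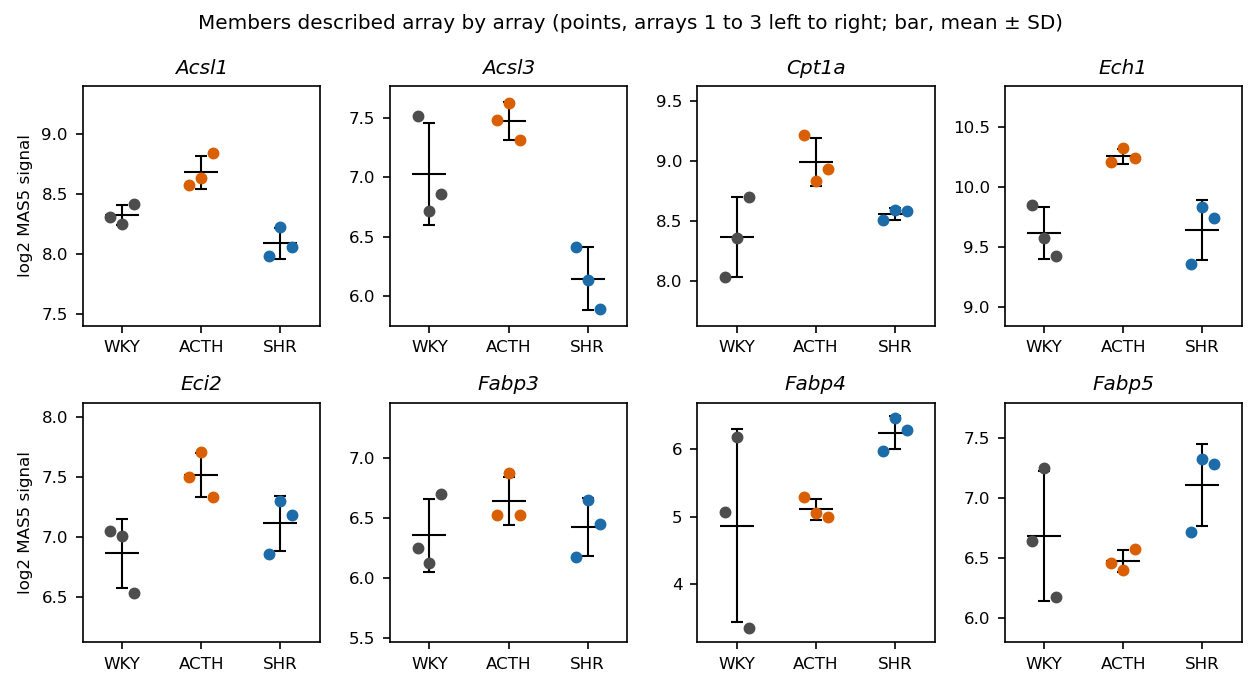
Log2 MAS5 signal of 8 members in WKY, ACTH and SHR arrays, with a panel each; points are single arrays, and the bar and whiskers give the mean ± SD of 3 arrays. Acsl3 is lowest in all SHR arrays, Cpt1a, Ech1 and Eci2 are highest in all ACTH arrays, and Fabp4 spreads most widely in WKY.

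The dehydrogenases open each round, in order of chain length from Acadvl through Acadl and Acadm to Acads. Acads, specific for short chains, gave 77.1, 157 and 132 in WKY, 166, 162 and 165 in ACTH and 160, 212 and 223 in SHR. All SHR and all ACTH arrays lay above the WKY arrays, the nearest by only a few units. SHR differed from WKY by 0.75 ± 0.24 on the log2 scale and ACTH by 0.49 (limma adjusted p = 0.168 and 0.464). The SHR value was 0.45 without WKY 1, the lowest array, and 0.23 within the scan day shared by SHR 1, SHR 2 and WKY 2. Acadl, for long chains, had WKY arrays at 452 to 510, ACTH arrays at 550.4 to 661 and SHR arrays at 551 to 729, with differences of 0.41 ± 0.15 and 0.31 from WKY (limma adjusted p = 0.213 and 0.453). Thus WKY was the lowest group for both genes on every array, without either passing the adjusted threshold.

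Acadm, for medium chains, had WKY arrays at 1163 to 1351, ACTH arrays at 1213 to 1243 and SHR arrays at 869 to 1589, so that the SHR arrays enclosed all the others. Acadvl ranged from 342 to 445 over the 9 arrays with overlapping groups. Acad9, which also serves in the assembly of respiratory complex I, had WKY arrays at 136 to 153, ACTH arrays at 122 to 132 and SHR arrays at 134 to 185. Its ACTH arrays lay just below all the others, and its difference from WKY of -0.19 on the log2 scale was not past the threshold. Acad10 was near the filter minimum, at 47.6 to 62.0 on 8 arrays and 13.4 on SHR 1. Acadsb, for branched short chains, did not pass the filter.

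The later steps showed little. Hadha and Hadhb, the subunits of the trifunctional protein, ranged from 276 to 342 and from 920.2 to 1241 with overlapping groups in all 3 comparisons. Hadh, the short-chain hydroxyacyl-CoA dehydrogenase, ranged from 399.7 to 576, also overlapping. Acaa2, the matrix thiolase that ends a round, gave 298, 381 and 291 in WKY, 410.4, 487 and 409 in ACTH and 377, 444 and 448 in SHR. Its ACTH arrays lay above WKY while SHR overlapped WKY by a single array, and the differences from WKY were 0.44 ± 0.16 for ACTH and 0.39 ± 0.16 for SHR on the log2 scale (limma adjusted p = 0.282 and 0.254). With scan day as a block they were 0.05 ± 0.31 and 0.10 ± 0.22. The peroxisomal oxidases Acox2 and Acox3 did not pass the filter.

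Of the fatty acid binding proteins, Fabp4 and Fabp5 had higher mean signals in SHR but did not pass. Fabp4, the carrier of fat cells, macrophages and capillary endothelium, gave 33.6, 72.6 and 10.1 in WKY, 39.1, 33.3 and 31.7 in ACTH and 63.2, 88.4 and 78.2 in SHR. The SHR arrays lay above all ACTH arrays, but WKY 2 lay within the SHR range. SHR differed from WKY by 1.38 ± 0.54 on the log2 scale (limma adjusted p = 0.243) and from ACTH by 1.13 ± 0.54 (limma adjusted p = 0.311). Fitted without the WKY arrays, the difference from ACTH had a limma adjusted p of 0.0124. All ACTH arrays, WKY 1 and WKY 3 lay below the filter minimum of 44.3, and Fabp4 was kept through the SHR arrays and WKY 2. The filter thus favoured a difference of this kind, and these p-values add no independent support. The SHR difference from WKY depended on single WKY arrays. It was 2.04 ± 0.41 without WKY 2 (limma adjusted p = 0.0377) and 0.62 without WKY 3, the lowest array. Within the scan day that SHR 1 and SHR 2 share with WKY 2 it was 0.04.

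Fabp5, the epidermal-type carrier also found in macrophages and endothelium, gave 99.9, 153 and 72.3 in WKY, 88.0, 84.7 and 95.9 in ACTH and 105, 160.3 and 156 in SHR. The SHR arrays again lay above every ACTH array while WKY 2 reached into the SHR range. SHR differed from ACTH by 0.63 ± 0.26 on the log2 scale (limma adjusted p = 0.248) and from WKY by 0.42 ± 0.26 (limma adjusted p = 0.453). Fabp3, the heart and muscle carrier, gave 75.8, 69.5 and 104 in WKY, 92.2, 117 and 92.1 in ACTH and 72.0, 100.2 and 87.2 in SHR, with all groups overlapping and no adjusted p below 0.619. The other 6 binding proteins, Fabp1, Fabp2, Fabp6, Fabp7, Fabp9 and Fabp12, did not pass the filter.

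Markers of other cells were read beside Fabp4. Of 10 white fat cell markers on the array 8 passed the filter, and the sum of the 10 ran from 1254 to 1426 over the WKY arrays, from 1374 to 1632 over ACTH and from 1319 to 1548 over SHR. Lep and Plin1, which define fat cells, did not pass, with signals of at most 6.41 and 25.4. Cfd, the fat cell factor adipsin, had WKY arrays at 27.2 to 111, ACTH arrays at 159 to 339 and SHR arrays at 99.0 to 126, so that it was highest in ACTH and Fabp4 was not. In SHR against WKY 6 of the 8 kept fat markers lay above 0 and 2 below. Their arrays did not overlap for 1 higher (Lipe) and 0 lower, against 9.72% and 9.64% of all kept probesets. At an unadjusted p under 0.05 in limma 3 were higher and 0 lower, against 8.11% and 8.3% of all. In the other 2 comparisons the kept fat markers went both ways. In ACTH against WKY the arrays did not overlap for 2 higher (Cfd, Rbp4) and 1 lower (Lpl), against 10.7% and 9.77% of all kept probesets. In SHR against ACTH 2 were higher (Lipe, Lpl) and 3 lower (Cfd, Rbp4, Slc2a4), against 11.7% and 13.3%. The 10 macrophage markers on the array, 8 of them kept, had sums from 482 to 1427 over the WKY arrays, from 1646 to 2479 over ACTH and from 1104 to 1681 over SHR. In SHR against WKY the 8 kept lay above 0, with a median log2 difference of 0.83, and 0 of them had arrays that did not overlap. Of 9 endothelial markers, the SHR and WKY arrays did not overlap for 3 higher in SHR (Flt1, Kdr, Thbd) and 1 lower (Vwf). The shares of all kept probesets were 9.72% and 9.64%. Flt1 and Thbd were called higher and Vwf lower. The endothelial sums overlapped, at 2014 to 2510 in SHR and 2195 to 2680 in WKY. In whole arteries fewer cells of a type and less RNA per cell cannot be told apart. The part of these cell types in the Fabp values was not tested.

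**Figure D3:**
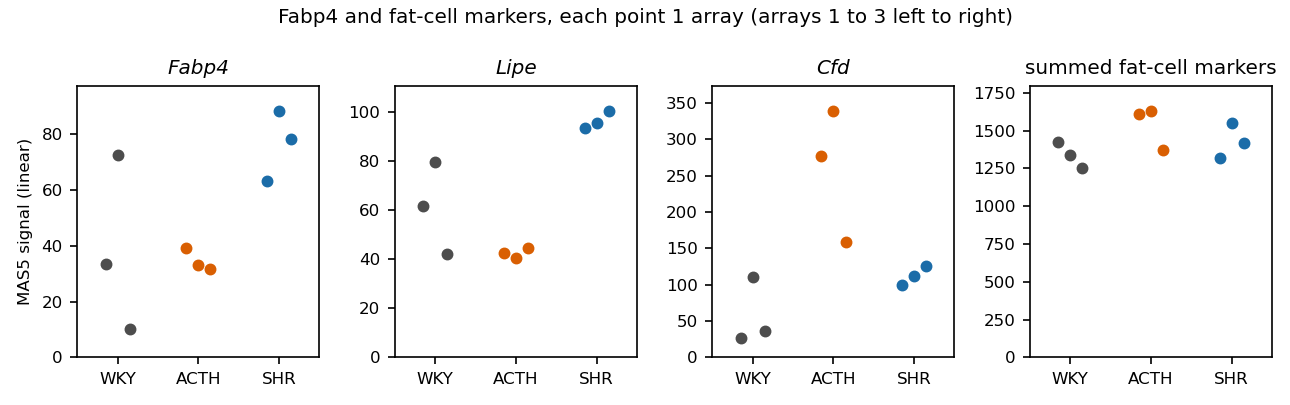
MAS5 signal on a linear scale of Fabp4, of the fat cell genes Lipe and Cfd, and of the summed fat cell markers, with 1 point per array in WKY, ACTH and SHR. Fabp4 and Lipe are higher in SHR than in ACTH on every array, whereas Cfd is highest in ACTH and the summed markers overlap between groups.

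The thioesterases release free fatty acids from acyl-CoA. Acot7, a cytosolic form, ranged from 154 to 351, Acot8, a peroxisomal form, from 54.2 to 105, and Acot13 from 37.0 to 76.4. All groups overlapped for each of these, and no adjusted p in a comparison with WKY was below 0.644. Acot1, Acot2, Acot4 and Acot12 did not pass the filter. The 16 members that did not pass had a third-highest signal of at most 29.7, and their single highest value was 46.9, of Cpt1c on SHR 2, so that no statement on their change is made.

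Taking the 28 kept members by comparison, SHR against WKY had 0 past the adjusted threshold in limma, where 2.04% of all kept probesets passed, 0.967% higher and 1.08% lower. At an unadjusted p under 0.05 there were 4 higher and 1 lower, against 8.11% and 8.3% of all. The 4 include Fabp4, which the filter kept through the SHR arrays and WKY 2. The unmoderated contrasts of the study's methods also gave 0 after adjustment, a step those methods do not name. By its own cutoffs the study lists Acsl3 and Decr1 as lower in SHR than in WKY. The arrays did not overlap for 2 members that were higher (Acadl, Acads) and 2 that were lower (Acsl1, Acsl3), 7.14% each way, against 9.72% and 9.64% of all. These shares are close to the background. The median difference was 0.05 on the log2 scale, with 16 members above 0, and that of all probesets was -0.0046.

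ACTH against WKY also had 0 members past the adjusted threshold in limma, where 1.21% of all passed (0.55% higher and 0.659% lower). There were 5 higher and 0 lower at an unadjusted p under 0.05, against 6.86% and 5.59% of all. The unmoderated contrasts gave 0 after adjustment, while the study by its own cutoffs lists Acsl1 as higher in ACTH than in WKY. The arrays did not overlap for 8 higher members, 28.6%, against 10.7% of all: Acaa2, Acadl, Acads, Acsl1, Cpt1a, Decr1, Ech1 and Eci2. They did not overlap for 2 lower members, Acad9 and Decr2, 7.14%, against 9.77% of all. Of the 28, 21 lay above 0, with a median of 0.09 on the log2 scale against 0.02 for all probesets. Array by array, the median member difference from the WKY mean stood at 0.12, 0.09 and 0.14 in ACTH, 0.10, 0.17 and 0.08 in SHR and -0.05, -0.02 and 0.02 in WKY. The WKY values lie near 0 by construction, since each gene was set against its own WKY mean, so that they are no contrast to the other arrays.

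SHR against ACTH had 2 members past the threshold, Acsl1 and Acsl3, both lower, where 3.4% of all passed, 1.57% higher and 1.82% lower. At an unadjusted p under 0.05 there was 1 higher member and there were 5 lower, against 7.61% and 9.58% of all. The arrays did not overlap for 4 higher members, 14.3%, against 11.7% of all (Acad9, Acsl5, Fabp4, Fabp5), and for 6 lower members, 21.4%, against 13.3% of all (Acsl1, Acsl3, Cpt1a, Decr1, Ech1, Eci2). The median was -0.06 on the log2 scale, with 16 members below 0, against -0.02 for all probesets. The standard error of a member's difference was 0.13 for Decr1 to 0.54 for Fabp4 with a median of 0.19, so that the 95% interval reached a median of 0.41 to either side and the size that could be detected differed by gene.

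**Figure D4:**
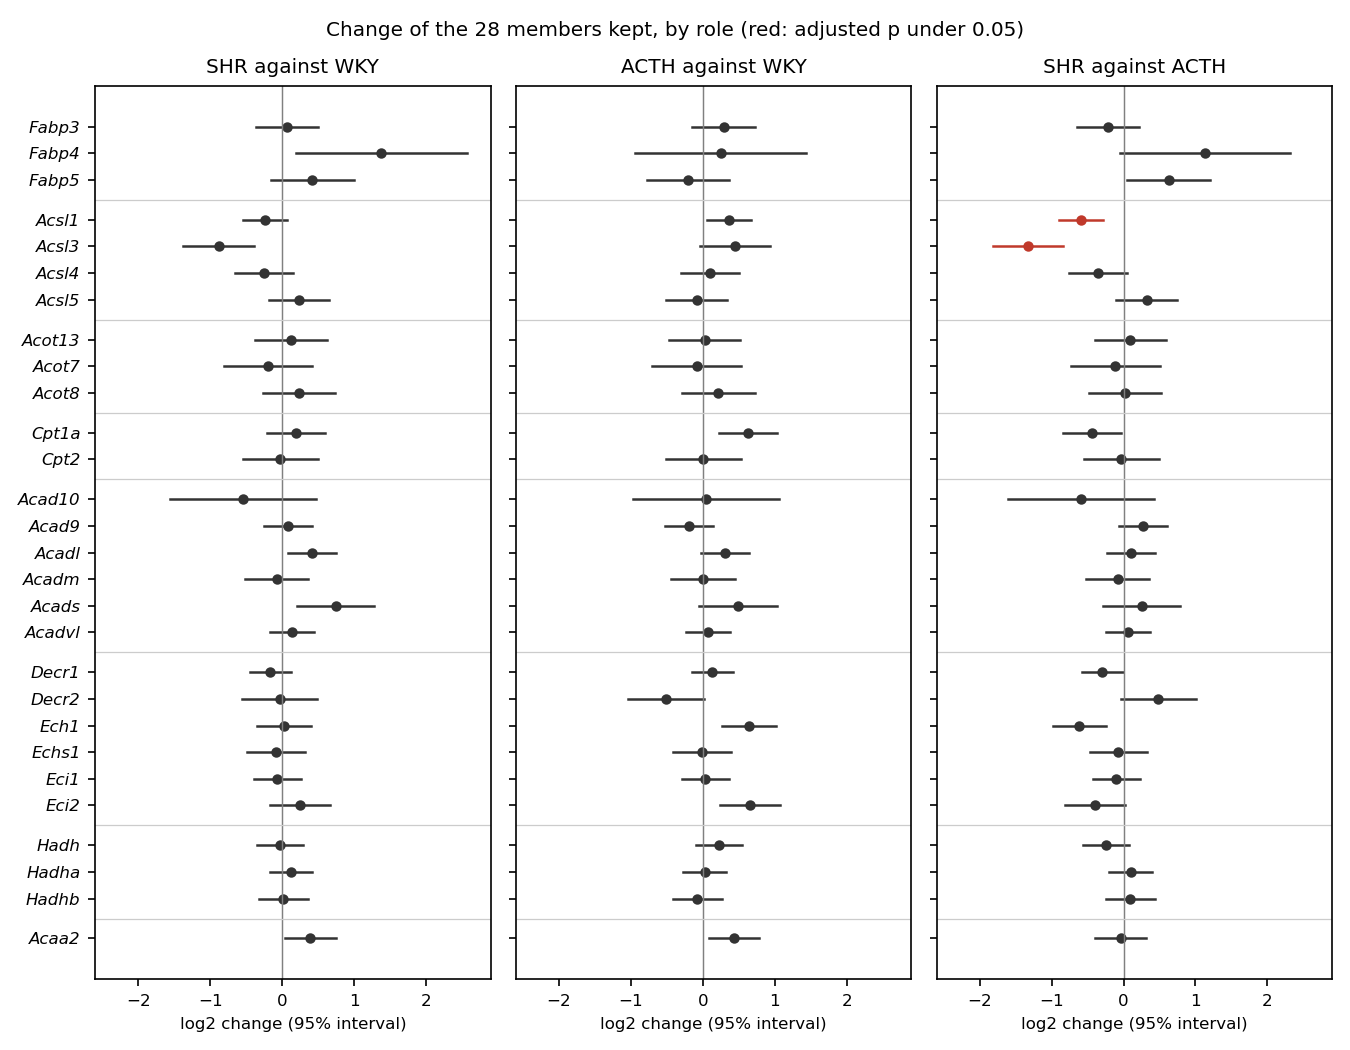
Log2 difference of each of the 28 kept members in SHR against WKY, ACTH against WKY and SHR against ACTH, grouped by role; lines give 95% intervals, and red marks an adjusted p under 0.05. Only Acsl1 and Acsl3 in SHR against ACTH are red, and most of the other intervals include 0.

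The surrounding pathway was read from 7 lists of other genes, covering uptake and release, the carnitine shuttle, electron transfer, peroxisomal oxidation, ketone bodies, regulators and synthesis, with 56 kept genes. In SHR against WKY 0 of the 56 passed in limma, against 2.04% of all kept probesets, with 8 higher and 4 lower at an unadjusted p under 0.05 (8.11% and 8.3% of all). In ACTH against WKY 1 rose, against 1.21% of all, with 6 higher and 5 lower unadjusted (6.86% and 5.59% of all). In SHR against ACTH 1 was higher and 1 lower, against 3.4% of all, with 5 higher and 6 lower unadjusted (7.61% and 9.58% of all). The genes were Angptl4 and Lipe, both of uptake and release.

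Angptl4, a secreted inhibitor of lipoprotein lipase and a known PPAR and glucocorticoid target, gave 84.0, 133 and 69.5 in WKY, 356, 450.3 and 271 in ACTH and 105, 160 and 142 in SHR. All ACTH arrays lay far above the rest. ACTH rose by 1.94 ± 0.27 on the log2 scale against WKY (limma adjusted p = 0.00853), and SHR fell by 1.40 ± 0.27 against ACTH (limma adjusted p = 0.0207). Lipe, the hormone-sensitive lipase that releases stored fatty acids, gave 61.7, 79.6 and 42.3 in WKY, 42.4, 40.5 and 44.6 in ACTH and 93.6, 95.6 and 100.5 in SHR. SHR lay above both other groups on every array and was 1.18 ± 0.20 higher than ACTH on the log2 scale (limma adjusted p = 0.0117). Cd36, the fatty acid translocase, differed between ACTH and WKY by 1.62 ± 0.35 (limma adjusted p = 0.0560). Lpl, of the same list, differed the other way by -0.54 ± 0.16 (limma adjusted p = 0.178), and neither passed. Of the 11 kept uptake and release genes, the ACTH and WKY arrays did not overlap for 3 higher and 1 lower in ACTH, against 10.7% and 9.77% of all. Over the 56 genes the median difference was 0.06 in SHR against WKY, 0.03 in ACTH against WKY and 0.07 in SHR against ACTH.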

How the data were processed

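RNA of 9 artery pools had been hybridised to RAE230A arrays, 3 per group. The authors processed the scans with MAS5, scaled each array to a target of 150, and deposited 1 linear intensity (signal) per probeset and array; detection calls were not used here. After removal of 57 controls from 15923 probesets, as many as the study had kept were retained, those with the highest third-highest signal (minimum 44.3). One limma model of the 3 groups was fitted to log2 signals (limma 3.58.1 in R 4.3.3, with lmFit and with eBayes, no trend), giving 6 residual and 4.44 prior degrees of freedom. P-values were two-sided, Benjamini-Hochberg adjustment ran over every retained probeset, and calls needed an adjusted p under 0.05. The test was checked on simulated data with independent noise. These held no differences of scan day or RNA quality, so that the check does not cover them. With 3 arrays per group the number of arrays limits the precision.

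Symbols came from the platform annotation; all 49 member probesets matched RefSeq, and 3 probesets with several matching symbols were left out. Of the kept probesets 7720 had 1 symbol, 220 several and 1158 none. Members and lists were chosen with earlier results of these data known. Members were described array by array if they were called, had an unadjusted p under 0.01 in any comparison, or were kept binding proteins; others were chosen after their values were seen. Replicate numbers did not pair the samples. Scan days came from the file headers. Other settings tried were quantile normalization, median centring of arrays, a pseudocount of 16, no filter beyond the controls, a filter at a mean signal of 100, array weights, a variance trend, the methods' ANOVA contrasts without moderation, a GAPDH covariate, blocks of scan day or replicate number, two-group fits, means over probesets and each array left out. Values within 1 scan day were added after seeing the data.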

Additional observations from a re-analysis of the deposited data

Results flagged for a closer look

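Acsl3 and Acsl1 were picked out because their differences from WKY in SHR and in ACTH differed from each other by a test, which is the SHR against ACTH contrast itself, since both share the WKY arrays. For Acsl3 the difference was -0.88 in SHR and 0.45 in ACTH, and the contrast was -1.33 ± 0.22 (limma adjusted p = 0.0105). For Acsl1 the difference was -0.24 in SHR and 0.36 in ACTH, and the contrast was -0.59 ± 0.14 (limma adjusted p = 0.0457).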

How the results depend on the processing

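Of the 28 members, 0 passed in SHR against WKY, but 1 did with a mean signal of at least 100 (Acsl3, limma adjusted p = 0.0471) and 1 with a variance trend (Acsl3, 0.0460), and leaving out 1 array gave 0 to 1 (Fabp4 without WKY 2). In ACTH against WKY 0 passed, 1 with a variance trend (Ech1, limma adjusted p = 0.0463) and 1 with array weights (Ech1, 0.0448), and 0 with any array left out. In SHR against ACTH 2 passed, but 0 over all non-control probesets, 0 in the methods' unmoderated contrasts, 1 with median centring, 1 with the GAPDH ratio, 1 with scan day as a block, 1 with means over probesets, 4 with array weights (Acsl1, Acsl3, Ech1, Fabp5), and 1 with each array left out in turn, which was Acsl3. With the replicate number as a block 1 passed, Acsl1 being lost at a limma adjusted p of 0.0712; the numbers did not pair the samples, since deviations of same-numbered arrays correlated at -0.067 to 0.128. Acsl3 had limma adjusted p of 0.0916 over all non-control probesets and 0.0739 without moderation. The causes of these shifts were not tested.

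The median of the members in SHR against WKY was -0.0040 over all non-control probesets, 0.0917 with the GAPDH ratio and 0.0221 to 0.0941 with 1 array left out. In ACTH against WKY it was 0.17, 0.21 and 0.0699 to 0.144. In SHR against ACTH it was -0.11 over all non-control probesets, -0.0148 with median centring, -0.0061 with array weights, -0.0116 with scan day as a block, and -0.0763 to 0.0227 with 1 array left out, positive without SHR 1. Signs turned for Fabp4 in ACTH against WKY (-1.14 once scan day was a block, -0.52 to 0.91 with 1 array left out, negative without WKY 3) and for Fabp5 (SHR against WKY -0.23 once scan day was a block, ACTH against WKY 0.20 with the GAPDH ratio and -0.467 to 0.0732 with 1 array left out). With 1 array left out, SHR against WKY was -0.0685 to 0.169 for Ech1 and -0.0495 to 0.240 for Fabp3. In SHR against ACTH the fit of these arrays alone also called 2 members, but these were Acsl3 and Fabp4 (limma adjusted p = 0.0124), with Acsl1 lost at 0.0665, and a variance trend called 3, Ech1 being added (0.0335). Fabp4 lay below the filter minimum in every ACTH array. Quantile normalization and log2 of signal plus 16 called Acsl1 and Acsl3 there and 0 members in the other comparisons.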
